A study of Mus musculus with 2 samples.

Results

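Among the Leydig cells of the 2-month mouse testis, 111 cells carried almost no message of the tissue kallikrein genes Klk1b21, Klk1b22, Klk1b24 and Klk1b27. They were selected on these measured counts, in 3 steps. A cell was kept if it had at least 500 counts and at least 200 genes, with no more than 25% of its counts from the mitochondrial genome, and 2770 of 2771 cells passed. Cells in which the steroid genes Cyp17a1, Hsd3b6 and Star together with Ptgds made up 1% or more of all counts were taken as Leydig cells, which gave 1144 cells. Of these, the cells with less than 0.05% of their counts in the 4 Klk1b genes are described here as Klk1b-low. They made up 111 of 1144 Leydig cells, or 9.70% (exact Clopper-Pearson 95% interval 8.05 to 11.6%), and were compared with the other 1033 Leydig cells of the same library.

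Leydig cells lie between the seminiferous tubules and make testosterone. Luteinizing hormone acts on its receptor on these cells, cholesterol is carried into mitochondria by StAR, and a chain of enzymes turns it first into pregnenolone and then into androgens. The cells meet their need for cholesterol by making it and by taking it up from lipoproteins. Tissue kallikreins are secreted serine proteases. In the mouse they form a large family of close copies that is best known from the salivary gland, and several of them are expressed in Leydig cells.

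The study measured single cells of testis from mice aged 2 months and 24 months with the BD Rhapsody system, 1 library per age. The tissue was freed of its tunica, minced and digested with accutase. The labels call the cells stroma cells and give neither the strain nor the number of mice behind a library. No difference in these data therefore has a replicate check, no test was made, and cells of 1 library are not replicates of a condition. Levels are CPM, counts per 1e+06 counts of all cells of a group added up. The range after a level is its exact 95% Poisson interval, and that after a ratio is an exact binomial one conditional on the total. Both cover counting error only.

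The 4 Klk1b genes chose the cells, so their values are a description. Klk1b21 stood at 100 CPM in the Klk1b-low cells and at 1489 in the other Leydig cells. Klk1b24 stood at 109 and 1010 CPM, Klk1b27 at 30.3 and 1058, and Klk1b22 at 9.23 and 294. Summed over the 4 genes, the level was 249 CPM (215 to 287) against 3850 (3807 to 3894). A Klk1b-low cell held a median of 1 and at most 10 such counts, another Leydig cell a median of 22 and at most 206. Of the 111 cells, 28 held no count of the 4 genes. The limit cuts a continuous range: 22 Leydig cells lay just inside it, at 0.04 to 0.05%, and 24 just outside, at 0.05 to 0.06%.

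**Figure D1:**
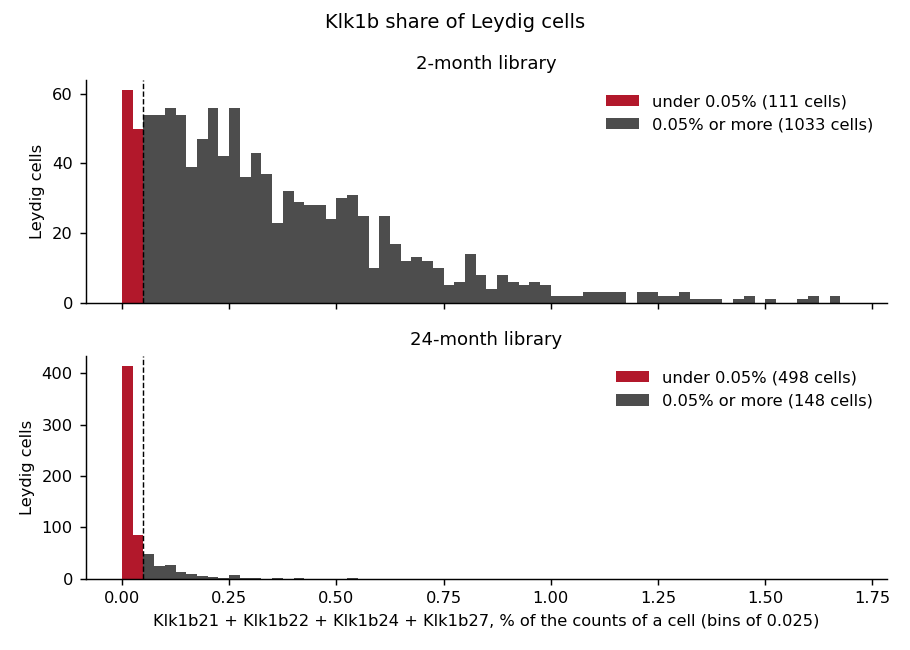
Number of Leydig cells (vertical axis) by the share of their counts in the 4 Klk1b genes (horizontal axis, percent) in the 2-month library (upper panel) and the 24-month library (lower panel); the dashed line is the limit of 0.05%. The 111 Klk1b-low cells are the left end of a broad distribution without a gap at 2 months, while 498 of 646 Leydig cells lie under the limit at 24 months.

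The 4 genes belong to a cluster of 14 Klk1 and Klk1b genes on the plus strand of chromosome 7, at chr7:43950664-44229618 (GRCm38, GENCODE M21), a span of 279 kb. The 4 genes were low by the choice of the cells, and other genes of the cluster were low in the same cells. The 150 bases before the RefSeq start of these 4 and of Klk1b16, the most abundant cluster gene outside the rule, are shown. The sequences are from RefSeq (GRCm38.p6, plus strand, 5′ to 3′). Their positions are chr7:44102142-44102291, chr7:44112523-44112672, chr7:44188086-44188235, chr7:44052140-44052289 and chr7:44137140-44137289 in the order printed. Capitals mark TTTAAA.
Klk1b21: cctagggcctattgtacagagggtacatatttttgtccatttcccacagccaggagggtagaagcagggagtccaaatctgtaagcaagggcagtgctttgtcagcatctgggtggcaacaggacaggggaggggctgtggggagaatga
Klk1b22: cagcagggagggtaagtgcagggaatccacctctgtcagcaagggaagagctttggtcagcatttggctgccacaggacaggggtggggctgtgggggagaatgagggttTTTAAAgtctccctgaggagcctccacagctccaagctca
Klk1b24: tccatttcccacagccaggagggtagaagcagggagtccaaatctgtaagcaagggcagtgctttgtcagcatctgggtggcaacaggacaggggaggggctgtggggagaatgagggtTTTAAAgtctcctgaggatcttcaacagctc
Klk1b27: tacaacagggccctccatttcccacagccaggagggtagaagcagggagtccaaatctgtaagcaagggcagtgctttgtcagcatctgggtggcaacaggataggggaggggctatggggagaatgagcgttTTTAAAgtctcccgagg
Klk1b16: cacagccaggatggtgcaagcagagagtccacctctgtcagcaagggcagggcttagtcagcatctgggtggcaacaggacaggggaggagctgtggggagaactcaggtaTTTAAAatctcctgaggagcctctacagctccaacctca

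The printed stretches of the 4 rule genes were 58.7 to 88.0% identical in pairs (median 78.3% of 6 pairs). Each stretch is cut at an annotated start, so a shift of the start between genes lowers these values. The last part of the Klk1b21 stretch reads the same as the first part of Klk1b24, yet that pair had 76.7%. TTTAAA reads the same on both strands. Within 250 bases before the start it stood in 12 of the 14 cluster genes, against 12.1% of 32851 RefSeq promoter windows of that length. The Klk1b21 window holds none, and its RefSeq start lies before the GENCODE start. The printed Klk1b16 stretch lies inside the GENCODE gene, which starts at chr7:44136767. A match is a description of letters and not a binding site. The transcripts of the 4 rule genes were 84.9 to 93.1% identical (median 89.4%). Of all 60-base stretches in the last 400 bases, 17.0% of Klk1b24, 16.7% of Klk1b21, 6.74% of Klk1b22 and 0.59% of Klk1b27 occur in another gene of the cluster, so counts of single cluster genes are uncertain where the counting could split reads.

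The Klk1b-low cells kept the signature of Leydig cells. The 8 Leydig markers that the rule did not use summed to 8904 CPM (8693 to 9119) in them and to 8910 (8844 to 8976) in the other Leydig cells, against 211 CPM in the remaining cells of the library. Of the 4 genes that chose the Leydig cells, Cyp17a1 stood at 9723 against 10270 CPM, Hsd3b6 at 3664 against 3759, Star at 1832 against 1803 and Ptgds, a prostaglandin D synthase, at 20193 against 26514. Depth was slightly lower: the median cell held 6305 counts and 2548 genes against 7147 and 2733. The mitochondrially encoded share had a median of 5.65% and 5.68%. The 4 genes that define Leydig cells here made up less than 2% of the counts in 14 of 111 cells (12.6%) against 43 of 1033 (4.16%). The 10 listed Sertoli markers summed to 4204 CPM against 4879, with a count in 100% of both groups, most of it from Clu at 3318 against 3925 CPM. Sox9, Amh, Cldn11 and Rhox5 among them had no count in the Klk1b-low cells. The 6 listed myoid markers had 7 counts there, 6 of them from Actg2, and Acta2, Myh11, Des and Cnn1 had none. The 10 spermatocyte markers summed to 555 CPM (503 to 611) against 445 (430 to 460), with a median cell at 254 against 276 CPM. Called doublets were 1 of 111 and 18 of 1033 cells. No cell number was shared between the Leydig cells of the 2 libraries.

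Of 10836 genes with 50 or more counts over both groups, 1114 (10.3%) were at least 1.5-fold higher in the Klk1b-low cells and 1141 (10.5%) at least 1.5-fold lower. The median log2 ratio was 0.08. Many of these genes rest on few counts in 111 cells. Among the 3475 genes with 50 or more CPM in the higher group, 147 (4.23%) were higher and 77 (2.22%) lower. Apart from sperm genes, which are treated as a list, the lower genes were led by Klk1b16, Cd52 and Apoc1. The higher ones were led by Svs5 from 3 cells, by the matrix gene Dcn, by Igfbp4, Cd63 and Pygm, and by macrophage genes found in few cells.

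**Figure D2:**
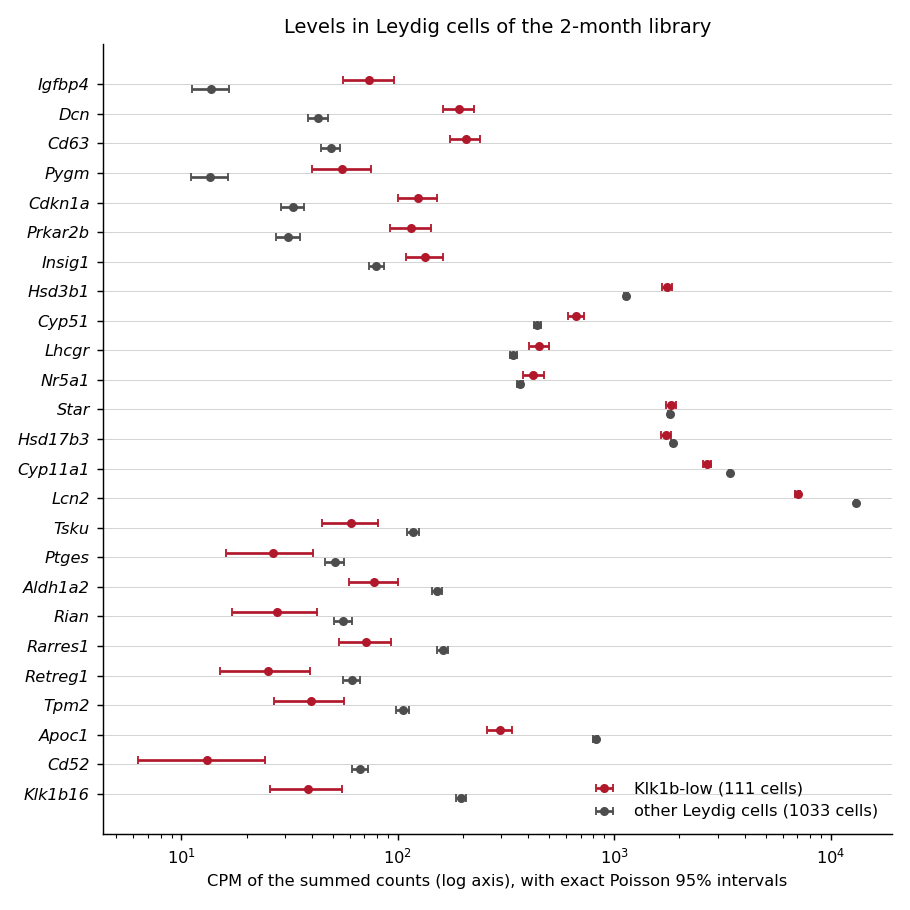
Level of 25 genes (CPM of summed counts, log axis) in the 111 Klk1b-low cells (red) and the other 1033 Leydig cells (grey) of the 2-month library; bars are exact Poisson 95% intervals. Klk1b16, Apoc1 and Lcn2 lie lower in the Klk1b-low cells, Dcn, Igfbp4 and Cd63 higher, and Star, Hsd17b3 and Nr5a1 lie close together.

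Genes of the kallikrein cluster outside the rule were lower as well. Of 10 listed, 6 had enough counts, all 6 were at least 1.5-fold lower (background 10.5%), and their median log2 ratio was -2.52. Klk1b16 stood at 38.2 CPM (25.6 to 54.9) against 195 (186 to 206), which is 5.11-fold lower (3.54 to 7.66). Of the Klk1b-low cells 19.8% held a count of it, of the others 58.2%. With every cell thinned to 3000 counts these shares were 7.21% and 37.1%, against 0.25% of 1218 cells marked as spermatocytes, which should lack it and had a median depth of 30299.5 counts. Klk1b8 stood at 9.23 against 43.8 CPM, 4.74-fold lower (2.28 to 11.9), and at 43.5 CPM in the cells outside the Leydig group. Klk1b26 had no count in the Klk1b-low cells against 176 counts (22.5 CPM) in the others, at least 5.68-fold lower with a floor of 3 counts over the group, and Klk1b1 was at least 2.13-fold lower by the same floor. Klk1, the founding tissue kallikrein, had 2 against 168 counts, a ratio of 0.12 (0.01 to 0.45). Klk1b5 had 2 against 55 counts, and its ratio of 0.38 had an interval that includes equality (0.04 to 1.42). Klk1b3, Klk1b4, Klk1b9 and Klk1b11 had too few counts for a ratio. The likeness of the transcripts bears on these values, and its part in them was not tested.

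Secreted proteins best known from the liver and the acute phase showed the same direction for 2 abundant members. Lcn2, a siderophore-binding lipocalin (chr2:32384633-32388252), ranged from 188 to 27816 CPM over single Klk1b-low cells with a median of 5410. In the other Leydig cells it ranged from 328 to 53285 with a median of 11768. The ranges overlap, yet 52 of 111 Klk1b-low cells (46.8%) lay under 4973 CPM, where only the lowest 10% of the other cells lay. Summed, Lcn2 stood at 7039 CPM (6851 to 7230) against 13080 (13000 to 13160), 1.86-fold lower (1.81 to 1.91). Apoc1, an apolipoprotein (chr7:19689481-19692660), stood at 295 CPM (258 to 337) against 820 (800 to 840), 2.78-fold lower (2.43 to 3.19). Its single-cell median was 94.5 against 532 CPM, and 53.2% against 81.1% of cells held a count (36.9% and 68.0% when thinned, 1.07% of the spermatocyte-marked cells). Of the 12 members of this list with enough counts, 3 were lower (Apoc1, Lcn2 and Fetub, background 10.5%), Trf was higher (background 10.3%), 5 had a ratio above 1 and the median log2 ratio was -0.13. Agt, angiotensinogen, stood at 4089 against 5890 CPM. The transferrin gene Trf stood at 112 CPM (89.5 to 139) against 53.8 (48.8 to 59.2). Amy1, a salivary-type amylase named here after its values had been seen, stood at 588 CPM (535 to 645) against 925 (904 to 947).

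**Figure D3:**
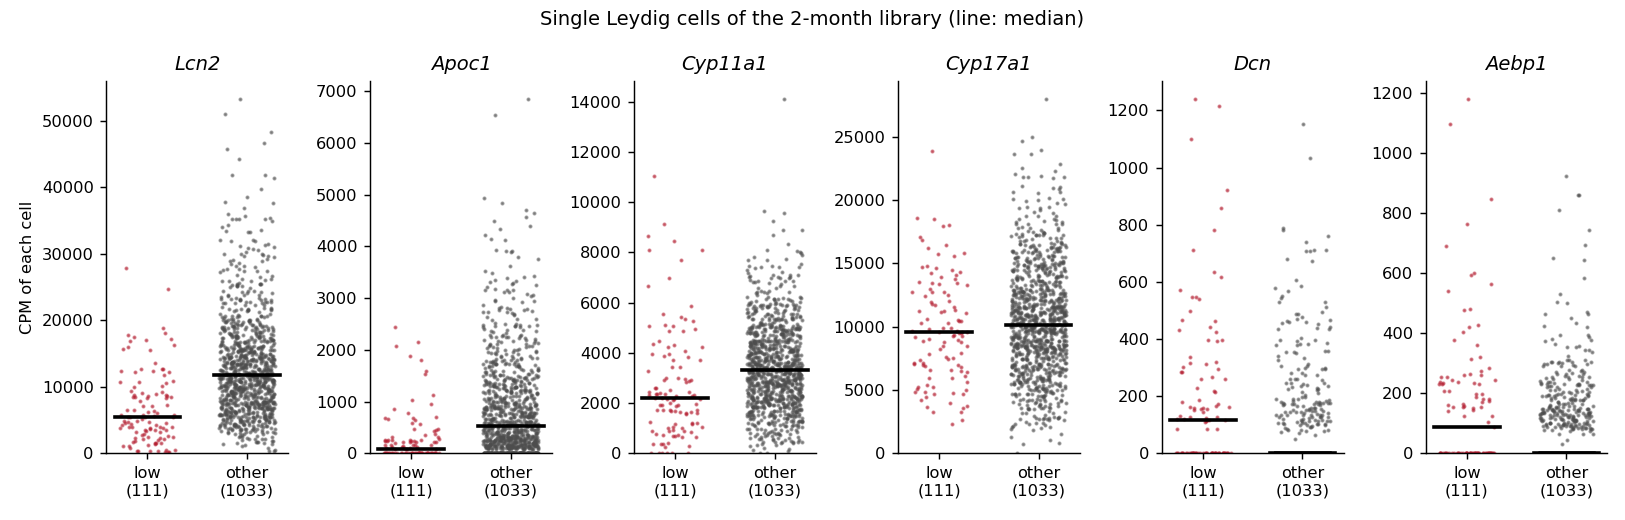
Levels in single Leydig cells of the 2-month library (CPM of each cell, vertical axes differ) in 111 Klk1b-low and 1033 other cells; the line is the median. Lcn2 and Apoc1 sit lower in the Klk1b-low cells with overlapping ranges, Cyp11a1 has a lower median, 2195 against 3327 CPM, Cyp17a1 overlaps widely, and Dcn has a median of 117 against 0 CPM.

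Further genes at or above their level outside Leydig cells were lower. Tpm2, a tropomyosin, stood at 39.6 CPM (26.7 to 56.5) against 106 (98.4 to 113), 2.67-fold lower (1.85 to 3.98). Rarres1, a retinoid-induced gene, was 2.26-fold lower (1.72 to 3.03), at 71.2 against 161 CPM. The surface antigen Cd52 stood at 13.2 CPM (6.32 to 24.2) against 67.0 (61.4 to 73.0), the lowest ratio after Klk1b16 in this group. Its log2 ratio of -2.28 became -0.40 at a Klk1b limit of 0.1%. Retreg1, an endoplasmic reticulum receptor of autophagy, was 2.45-fold lower (1.55 to 4.11). The imprinted RNA Rian, Tsku, the prostaglandin E synthase Ptges, Cxcl10, Tspan8 and the ammonium transporter Rhbg were 1.80-fold to 2.02-fold lower. Aldh1a2, which makes retinoic acid and is also expressed outside Leydig cells, stood at 77.8 against 152 CPM, and at 136 CPM outside the Leydig group. The rule for naming also took protamine and other genes of elongating spermatids. The 10 listed markers of that stage were all at least 1.5-fold lower (background 10.5%). Their sum stood at 1138 against 2814 CPM, while the median cell held 856 against 832 CPM. Germ cell markers made up 1% or more in 1 of 111 and 17 of 1033 cells, and the list's median log2 ratio of -1.25 became 0.05 without called doublets.

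Dcn was among the genes with the highest ratios. Decorin, its product, is a proteoglycan of collagen matrix and a marker of stromal fibroblasts (chr10:97479609-97518143). Over single cells Dcn ranged from 0 to 1240 CPM with a median of 117 in the Klk1b-low cells, and from 0 to 1153 with a median of 0 in the others. Summed, it stood at 191 CPM (161 to 225) against 42.9 (38.4 to 47.7), a ratio of 4.46 (3.64 to 5.43). Dcn was detected in 55.9% against 17.0% of cells. Thinned, the shares were 39.6% and 9.87%, against 0.33% of the spermatocyte-marked cells. Igfbp4, which binds insulin-like growth factors, stood at 73.8 CPM (55.8 to 95.9) against 13.7 (11.2 to 16.5), a ratio of 5.41 (3.84 to 7.54). Without the cells that carried macrophage markers at 0.2% or more, Igfbp4 stood at 40.9 against 8.76 CPM, while Dcn stood at 181 against 43.1. Aebp1, a matrix protein chosen after its values had been seen, stood at 156 CPM (129 to 186) against 56.3 (51.1 to 61.8).

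The 9 listed fibroblast markers summed to 583 CPM (530 to 640) in the Klk1b-low cells, 285 (273 to 297) in the other Leydig cells and 101 in the remaining cells. The median Klk1b-low cell held 461 CPM of them and the highest 2559. Of 6 with enough counts, Dcn, Col3a1 and Col1a2 were at least 1.5-fold higher (background 10.3%) and none lower. Col3a1 stood at 46.2 against 12.6 CPM and Col1a2 at 105 against 41.0. The defining markers Col1a1 and Lum had no count in the Klk1b-low cells. Whether RNA of fibroblasts takes part in these levels was not tested.

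Among the other leading genes, Cd63, a tetraspanin of late endosomes, stood at 206 CPM (175 to 241) against 49.0 (44.2 to 54.1), a ratio of 4.20 (3.46 to 5.07). Its thinned share of cells was 31.5% against 10.9%, with 14.4% in the spermatocyte-marked cells, which held Cd63 in 74.6% of cells before thinning. Pygm, muscle glycogen phosphorylase, stood at 55.4 CPM (39.9 to 74.9) against 13.5 (11.1 to 16.4). Prkar2b, a regulatory subunit of the cAMP-dependent kinase, stood at 115 CPM (91.9 to 142) against 31.0 (27.2 to 35.2), with a count in 40.5% and 16.6% of cells (27.0% and 7.74% when thinned, 2.63% of the spermatocyte-marked cells). Cdkn1a, the cell cycle inhibitor p21, stood at 124 CPM (100 to 152) against 32.7 (28.8 to 36.9), with a count in 18.0% and 9.39% (13.5% and 6.0% when thinned, 0.49% of the spermatocyte-marked cells). These 4 ratios lay between 3.70 and 4.88 with and without the cells that carried macrophage markers. The highest ratio of all belonged to Svs5, a seminal vesicle protein: 3 Klk1b-low cells held its 72 counts, and 1 of them held 88.9%.

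The Klk1b-low cells were not alike in the Dcn group. In the 62 with a Dcn count, Aebp1 stood at 217 CPM (176 to 264), in the 49 without at 65.2 (39.8 to 101). Cd63 stood at 306 against 58.7 CPM, Col1a2 at 159 against 26.1, Pygm at 81.9 against 16.3 and Igfbp4 at 99.6 against 35.9. These genes were thus higher in the same cells as Dcn. Lcn2 was lower there, at 6143 (5916 to 6376) against 8357 (8037 to 8687), and Apoc1 at 206 against 427. Prkar2b was not higher with Dcn, at 95.2 (68.9 to 128) against 143 (104 to 193), and Cyp17a1 stood at 9850 against 9537. The cells with a Dcn count were deeper, with a median of 6715 against 5487 counts. The other Leydig cells showed the same directions for Cd63 (125 in 176 cells with a Dcn count, 32.8 in 857 without) and Lcn2 (10742 and 13578). This split was chosen after values had been seen.

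Macrophages lie beside Leydig cells in the testis, and 8 of 8 macrophage markers with enough counts were at least 1.5-fold higher (background 10.3%). Their sum stood at 1341 CPM (1260 to 1426) against 457 (442 to 472). The median cell of both groups held none. At least 1 count was found in 20.7% and 15.4% of cells, and 9 of 111 (8.11%) against 43 of 1033 cells (4.16%) reached 0.2% of their counts. Csf1r, the receptor of the main macrophage growth factor, stood at 134 against 35.3 CPM, Mrc1 at 69.9 against 19.0 and Lyz2 at 476 against 145. Cd68, Dab2 and Folr2, also known from macrophages and not among the listed markers, stood at 109 against 30.6, 85.7 against 20.9 and 60.7 against 18.2 CPM. Without the cells at or above 0.2%, a limit set after the data had been seen, they stood at 4.38 against 3.64, 2.92 against 2.56 and 1.46 against 1.35 CPM, levels of a few counts. F13a1, Pf4 and Ccl8, likewise outside the list, stood at 116 against 32.3, 79.1 against 23.3 and 109 against 32.3 CPM. Without the marked cells these stayed higher, at 11.7 against 1.62, 2.92 against 0.81 and 5.85 against 2.16 CPM, again on few counts.

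Genes of androgen synthesis outside the rule stood near equality as a list. Of 14 with enough counts 2 were higher (background 10.3%) and none lower, and the median log2 ratio was -0.05. Cyp11a1, the side-chain cleavage enzyme, was lower at 2685 CPM (2569 to 2804) against 3420 (3379 to 3461). Over single cells it had a median of 2195 against 3327, and 33 of 111 cells (29.7%) lay under 1456 CPM, where only the lowest 10% of the others lay. Hsd3b1, the second 3β-hydroxysteroid dehydrogenase beside Hsd3b6, was higher at 1759 CPM (1666 to 1856) against 1137 (1114 to 1161), a ratio of 1.55 (1.46 to 1.64). Hsd17b3, which makes testosterone, stood at 1727 against 1861 CPM. Stard4, a carrier of cholesterol, stood at 54.1 CPM (38.8 to 73.3) against 35.2 (31.2 to 39.6).

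Hormone receptors and factors of Leydig identity had a median log2 ratio of 0.06 over 17 genes, with 2 higher (background 10.3%) and 1 lower (background 10.5%). Lhcgr, the receptor of luteinizing hormone, stood at 450 CPM (403 to 500) against 341 (328 to 354). Nr5a1, the factor SF-1, stood at 422 (377 to 471) against 367 (354 to 380). The higher genes were Nr3c1, the glucocorticoid receptor, at 34.3 against 17.1 CPM, and Gata6 at 40.9 against 21.3. Insl3, a peptide hormone of adult Leydig cells, stood at 84.4 CPM (65.0 to 108) against 112 (105 to 120). In steroid metabolism, 5α-reductase 1 (Srd5a1) stood at 40.9 against 21.8 CPM and Akr1c14 at 19.8 against 8.93, so that 2 of 7 genes were higher (background 10.3%). Akr1c14 rests on 15 counts in the Klk1b-low cells.

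Cholesterol synthesis genes were higher as a list. All 21 listed genes had a log2 ratio above 0, from 0.08 to 0.77 with a median of 0.43, while 59.2% of all 10836 genes did. Of them 6 (Pmvk, Insig1, Ebp, Tm7sf2, Lss and Cyp51) were at least 1.5-fold higher (background 10.3%) and none lower. Their sum stood at 5559 CPM (5393 to 5730) against 4190 (4144 to 4235). Cyp51, the lanosterol demethylase, stood at 665 CPM (608 to 725) against 441 (427 to 456). Ebp, a sterol isomerase, stood at 368 (326 to 414) against 222 (211 to 232). Insig1, which holds back the sterol-sensing machinery and is itself switched on by it, stood at 133 (108 to 162) against 79.5 (73.4 to 86.0). Hmgcs1, at the entry of the pathway, stood at 418 (373 to 467) against 306 (294 to 319). The 28 cells with no Klk1b count, with a median depth of 4390.5 counts, did not show it: their sum was 4509 CPM (4167 to 4871) and the list's median log2 ratio 0.07. In the other 83 Klk1b-low cells the sum was 5802 CPM. It was 4390, 4608, 4325 and 3617 CPM in Leydig cells at 0.05 to 0.1%, 0.1 to 0.2%, 0.2 to 0.5% and 0.5% or more. The sum thus had no order by Klk1b share over all classes. Uptake and transport of cholesterol had a median log2 ratio of 0.20 over 13 genes, with none past 1.5-fold.

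**Figure D4:**
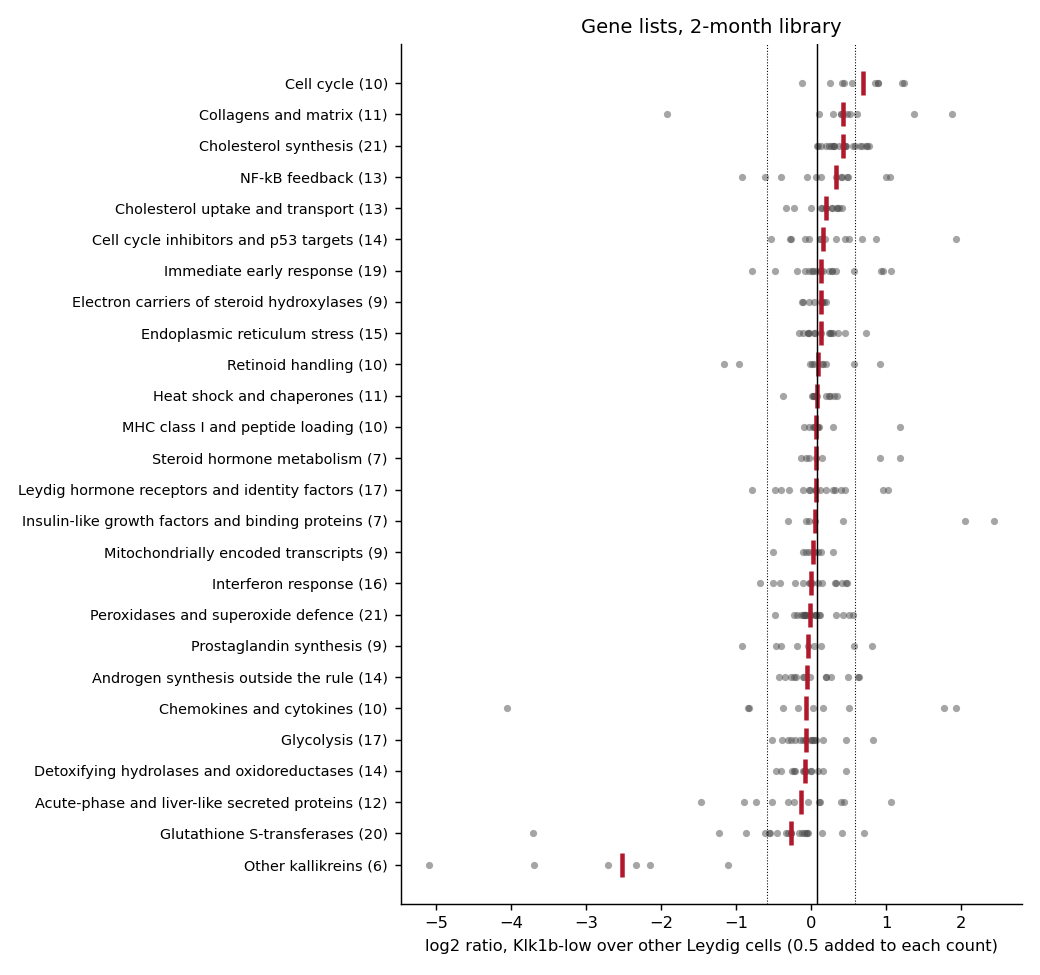
Log2 ratio of Klk1b-low over other Leydig cells at 2 months for the members of 26 gene lists (grey points, genes with 50 or more counts, their number in brackets) with each list's median (red); dotted lines mark 1.5-fold and the solid line the median of all genes, 0.08. Other kallikreins lie far to the left, with a median of -2.52, and all 21 cholesterol synthesis genes lie to the right of 0.

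Of 20 glutathione S-transferases, which detoxify reactive compounds, 4 were lower (background 10.5%) and 1, Gsta2, higher (background 10.3%), and the median log2 ratio was -0.27. The abundant Gstm1 stood at 22926 CPM (22587 to 23269) against 28769 (28650 to 28888) and Gstm2 at 10259 against 12365. Of 10 cell cycle genes 5 were higher (background 10.3%) and none lower. The spermatocyte markers Ccna1 and Aurka were higher as well in the sum, at 25.1 against 11.7 and 27.7 against 17.1 CPM. In the Klk1b-low cells, 1 cell held 52.6% of the 19 Ccna1 counts, and 1 cell held 42.9% of the 21 Aurka counts. A count was found in 7.21% against 6.78% of cells for Ccna1 and in 10.8% against 10.3% for Aurka. The interval of the Aurka ratio includes equality (0.97 to 2.58). Top2a stood at 21.1 against 9.19 CPM in the 2 Leydig groups and at 211 CPM in the cells outside them, and the part of germ cell RNA in the cell cycle genes was not tested. Top2a, Mcm7, Mcm2 and Cdk1 had 8 to 16 counts in the Klk1b-low cells, while cyclin D2 (Ccnd2) stood at 107 CPM (84.8 to 133) against 46.2 (41.6 to 51.2). Collagens and matrix genes had a median of 0.43 over 11 genes, with 3 higher (background 10.3%) and 1 lower (background 10.5%). Of 7 insulin-like growth factors and binding proteins, 2 were higher (background 10.3%), Igfbp4 and Igf1, while Igfbp7 stood at 2422 CPM against 2530. Igf1 had a ratio of 4.10 (2.47 to 6.61) on 25 counts in the Klk1b-low cells, and stood at 5.85 against 2.16 CPM without the cells that carried macrophage markers. Immediate early genes had a median of 0.14 over 19 genes, and Atf3 stood at 161 CPM (134 to 192) against 77.2 (71.2 to 83.6). Without the macrophage-marked cells Atf3 stood at 80.4 against 52.4 CPM. The part of macrophage RNA in Igfbp4, Igf1 and Atf3 was not tested. Peroxidases, heat shock, endoplasmic reticulum stress, glycolysis, interferon response and mitochondrially encoded transcripts had medians between -0.07 and 0.13.

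Split by the Klk1b share itself, the levels of Lcn2, Apoc1 and Klk1b16 formed a gradient that went on past the limit. Lcn2 stood at 5926 CPM (5533 to 6339) in the 28 cells with no Klk1b count and at 7296 (7085 to 7513) in the other 83 Klk1b-low cells. Above the limit it stood at 10239, 11979, 13433 and 14421 CPM in the 108, 196, 434 and 295 cells with 0.05 to 0.1%, 0.1 to 0.2%, 0.2 to 0.5% and 0.5% or more. Apoc1 followed the same order from 238 CPM (165 to 333) to 1110 (1067 to 1155), and Klk1b16 from 14.0 to 323 CPM. Among the Klk1b-low cells the intervals of Apoc1 and Klk1b16 overlap between cells with and without a Klk1b count. Dcn was highest in the 83 cells, at 211 CPM (176 to 251), against 105 (58.9 to 173) in the 28 cells with no Klk1b count. Above the limit Dcn lay between 86.1 and 28.8 CPM, lower in each next class. Cyp17a1 lay between 9234 and 10808 CPM over all 6 classes, with no order.

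**Figure D5:**
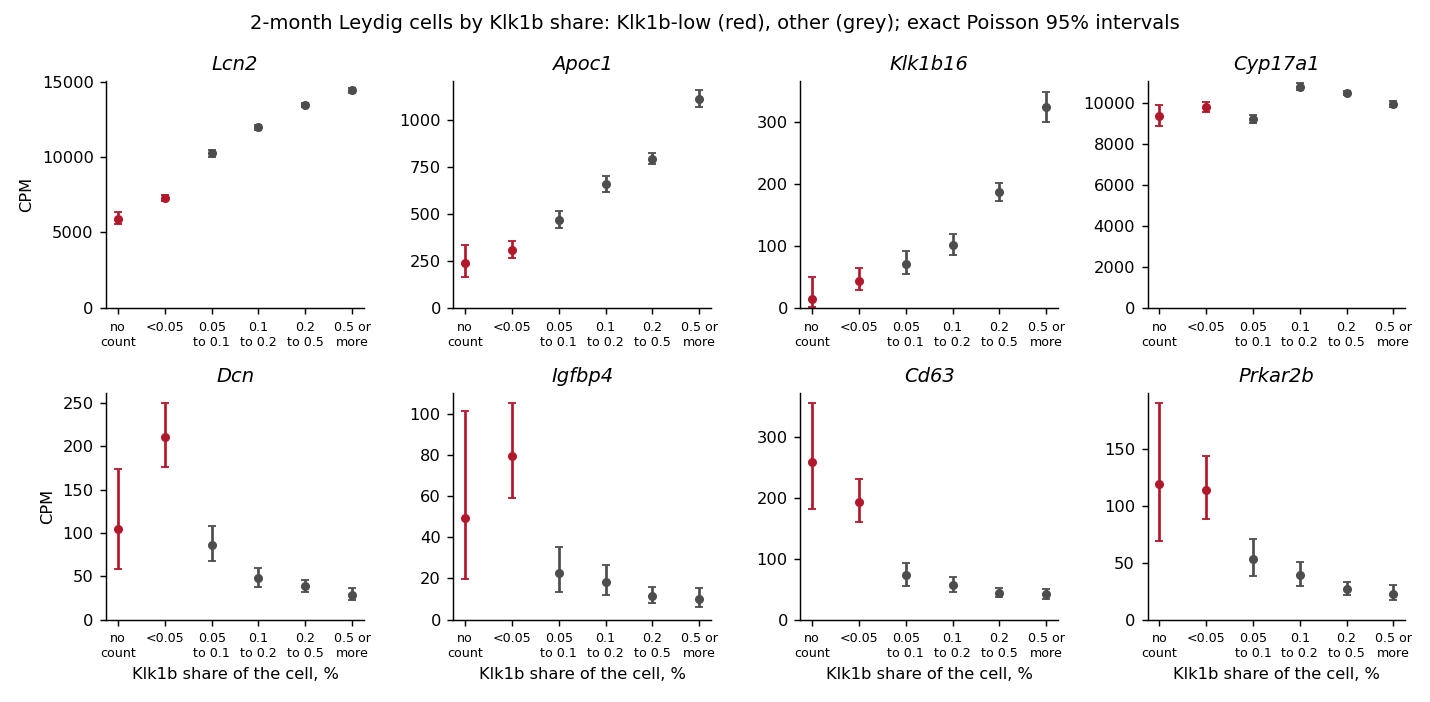
CPM of 8 genes (vertical axes start at 0) in 6 classes of 2-month Leydig cells by Klk1b share (horizontal axis, percent), the Klk1b-low cells in red; bars are exact Poisson 95% intervals. Lcn2, Apoc1 and Klk1b16 are higher in each next class, Dcn, Igfbp4, Cd63 and Prkar2b are highest in the 2 Klk1b-low classes, and Cyp17a1 stays between 9234 and 10808 CPM.

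By the same rule, 498 of 646 Leydig cells of the 24-month library (77.1%, 73.7 to 80.3%) were Klk1b-low, against 9.70% at 2 months. Age and library cannot be told apart here, and the median 24-month Klk1b-low cell held 4796.5 counts. Of 7485 genes tested there, 601 (8.03%) were at least 1.5-fold higher in the Klk1b-low cells and 227 (3.03%) lower. Within that library the Klk1b-low cells differed from the other 148 in the same direction for several genes. Lcn2 stood at 10037 against 16395 CPM, Apoc1 at 517 against 742 and Klk1b16 at 20.7 against 98.8. All 21 cholesterol synthesis genes again had a ratio above 1, while 31.8% of 7450 genes counted at both ages did so at both. Unlike at 2 months, their sum was highest in the cells with no Klk1b count. It stood at 6119 CPM there and at 5551 in the other Klk1b-low cells. Dcn stood at 30.8 against 3.95 CPM on 76 and 3 counts, a ratio of 7.80 (2.57 to 38.7). It was found in 5.71% of the 315 Klk1b-low cells with no Klk1b count and in 4.92% of the other 183. At 2 months 55.9% of the Klk1b-low cells held a Dcn count. Prkar2b stood at 86.4 against 44.8 CPM at 24 months. Cd63 had a ratio of 1.18 with an interval from 0.81 to 1.76, and Agt had a ratio of 1.04. The 10 markers of elongating spermatids, all lower at 2 months, all had a ratio above 1, with a sum of 2090 against 1195 CPM. The median cell went the other way, at 311 against 370 CPM, and the highest Klk1b-low cell reached 142296 CPM. Of 507 genes at least 1.5-fold higher at 2 months and 591 at 24 months, 101 were shared (19.9% and 17.1%). Over all 7450 genes counted at both ages, 6.81% were higher at 2 months and 7.93% at 24 months. Of 425 and 222 lower genes, 35 were shared (8.24% and 15.8%). Over the same 7450 genes, 5.70% were lower at 2 months and 2.98% at 24 months.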

How the data were processed

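For each library the authors deposited a table of whole-number counts, with genes against cells. Per the file headers, the 24-month table came from version 1.7.1 of the BD Rhapsody pipeline with STAR 2.5.2b. Cell Ranger 2.11 and the build mm10 are named in the submitters' processing notes. The sources used here do not settle which was used, nor if counts are of molecules or reads. Counts were summed over cells and scaled to CPM (python 3.11.15, scipy 1.17.1). Log2 ratios used 0.5 added to each count. Doublets were called with Scrublet in scanpy 1.11.5, as an alternative only. The cells and gene lists were chosen with earlier results of these data known. Genes were named by rule: of genes with 50 or more counts and 50 or more CPM in the higher group, the 15 highest and 15 lowest ratios, the same among genes at least as high in Leydig cells as elsewhere, and per list the 2 furthest and the 2 most abundant. Gene models, ribosomal, mitochondrially encoded and globin genes were left out there. The text gives a part of these. Klk1, Klk1b5, Aebp1, Amy1, Col1a2, Ebp, Fetub, Gsta2, Hmgcs1, Insl3, Lss, Tm7sf2 and genes given only as called members of a list were added after their values had been seen. The scripts were tested on simulated data. Alternatives changed the limits of the rule, filters, doublets, depth, averaging, scaling, the count minimum and the fold.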

Additional observations from a re-analysis of the deposited data

How the results depend on the processing

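The share of Klk1b-low cells follows the limit: it was 4.20% at 0.02%, 19.1% at 0.1% and 2.45% with no count allowed, and 11.8% with cells thinned to 3000 counts. Genes higher were 1743 at a limit of 0.1%, 1725 with no Klk1b count, 1824 and 234 at a minimum of 20 and 200 counts, and 262 at 2-fold. Genes lower were 2015 at a limit of 0.02%, 400 at 0.1%, 3170 with no Klk1b count, 637 when thinned, 1892 and 261 at a minimum of 20 and 200 counts, and 492 at 2-fold. The count minimum and thinning also change how many genes are tested, so these counts cannot be read as shares. In the 28 cells with no Klk1b count, the median log2 ratio of cholesterol synthesis was 0.069, and Insig1 (-0.066), Lss (-0.055) and Gsta2 (-1.01) turned lower. The median of elongating spermatid markers turned to 0.43 at a limit of 0.1%, 0.049 without doublets and 0.59 when thinned. The cause was not tested, beyond the fewer cells or genes that a setting leaves. Scaling the median log2 ratio of all genes to 0 shifted values by 0.08. The median of the other kallikreins stayed between -2.99 and -1.71 under every alternative that gave one. No paired analysis was possible because each age has 1 library. Of genes named as at least 1.5-fold apart, Aldh1a2, Tsku, Ptges, Cd52, Cxcl10, Tspan8, Rhbg, Fetub, Col1a2, Cd68, Dab2, Hsd3b1, Stard4, Srd5a1, Akr1c14, Insig1, Ebp, Tm7sf2, Lss, Cyp51, Trf and Gsta2 came under that fold in 1 alternative or more. Lcn2, Apoc1, Klk1b16, Dcn, Igfbp4, Cd63, Pygm, Cdkn1a and Prkar2b stayed past it in all 13 that were run for them. The Klk1b-low cells hold 758394 counts in all, which limits genes of low level.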
